A study of Mus musculus with 8 samples.

Results

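The aryl hydrocarbon receptor and the genes through which its activity is usually read were examined in mature CD8 single-positive (CD8SP) thymocytes of mice lacking Ndrg3 in T cells. The set holds 8 of the 47937 genes in the deposited count table: the receptor Ahr, its partner Arnt, the feedback repressors Ahrr and Tiparp, the classic target genes Cyp1a1, Cyp1b1 and Nqo1, and Nfe2l2, which encodes the transcription factor Nrf2. Ahr was chosen by its higher count in Ndrg3TKO in this same comparison, and the other genes were chosen to stand beside it. The values of all 8 are therefore given as a description without p-values. Where a call or a rank of a member is given, nothing is read from it. Of the 8, 5 passed the filter on low counts (Ahr, Arnt, Tiparp, Nqo1 and Nfe2l2), and Ahrr, Cyp1a1 and Cyp1b1 did not.

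CD8SP thymocytes that were TCRb+ and high for MHC-I were sorted from the thymus of mice 6 to 7 weeks old, and total RNA was sequenced with 1 library per mouse, 4 mice per group. Ndrg3ctrl mice had the genotype Ndrg3 +/fl;Lck-cre+ and Ndrg3TKO mice the genotype Ndrg3 fl/fl;Lck-cre+. Both groups therefore carried the Cre transgene and at least 1 floxed allele, and the proximal Lck promoter drives Cre in the T lineage from an early thymocyte stage onward, so other thymic cells keep the gene. Total counts per library were 30048212, 21126698, 29351266 and 26593789 in Ndrg3ctrl replicates 1 to 4 and 30113254, 32668081, 29699102 and 31932083 in Ndrg3TKO replicates 1 to 4, a difference in means that did not pass a 2-sided exact permutation test (p = 0.0571, n = 4 per group, where the smallest p the 70 splits allow is 0.0286).

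The aryl hydrocarbon receptor is a transcription factor of the bHLH-PAS family that waits in the cytosol in a complex with Hsp90 and its cochaperones until it binds a ligand, such as a dioxin, a plant indole or a product of tryptophan. It then moves to the nucleus, pairs with Arnt and binds short response elements near its target genes, of which the cytochrome P450 genes Cyp1a1 and Cyp1b1, the quinone reductase gene Nqo1 and the repressors Ahrr and Tiparp are the best known. In lymphocytes the receptor is best known from type 17 helper cells, innate lymphoid cells, regulatory T cells and resident T cells of barrier tissues.

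Levels are given as CPM, counts scaled per 1000000 counts of the library after scaling by the trimmed mean of M values (TMM), and differences as the log2 fold change of Ndrg3TKO over Ndrg3ctrl with its standard error (SE) from edgeR's quasi-likelihood fit across all genes. A gene was called where its p, adjusted by the Benjamini-Hochberg method over the 14633 tested genes, was under 0.05. By this rule 168 genes were called, 1.15% of those tested, of which 116 (0.793%) were higher and 52 (0.355%) lower in Ndrg3TKO. The p-values measure the spread between these mice. A count of 3 corresponded to 0.0918 to 0.142 CPM per library, and such floors and the Poisson intervals below cover counting error only, since the reads carry no molecular identifiers.

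The labels were first checked against the data. Ndrg3, the targeted gene, stood at 79.3, 81.5, 81.2 and 80.9 CPM in Ndrg3ctrl replicates 1 to 4 and at 50.4, 48.4, 53.1 and 55.3 CPM in Ndrg3TKO replicates 1 to 4. Every Ndrg3TKO library was below every Ndrg3ctrl library, and the log2 fold change was −0.64 (SE 0.0526, adjusted p = 1.04e-05, edgeR). The count spans all exons, of which a single one is flanked by loxP sites, so the RNA that remained does not measure how much of the gene was deleted. Cd8a, the CD8 alpha chain, averaged 1367 ± 19.2 CPM in Ndrg3ctrl and 1351 ± 33.6 CPM in Ndrg3TKO, whereas Cd4 averaged 0.668 ± 0.549 and 0.564 ± 0.141 CPM (SD, n = 4 per group).

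Ahr itself (ENSMUSG00000019256, GRCm38 chr12:35497974-35535038, minus strand) had raw counts of 534, 385, 495 and 405 in Ndrg3ctrl and 1277, 1284, 1422 and 1304 in Ndrg3TKO. After scaling, its level was 17.9, 18.9, 16.8 and 14.8 CPM in Ndrg3ctrl replicates 1 to 4 and 42.3, 40.3, 47.5 and 40.0 CPM in Ndrg3TKO replicates 1 to 4. The groups were far apart, with the lowest Ndrg3TKO library above the highest Ndrg3ctrl library. The means were 17.1 ± 1.76 and 42.5 ± 3.46 CPM (SD, n = 4 per group), a ratio of 2.49, and the log2 fold change was 1.32 (SE 0.0839). Among the 116 genes called higher in Ndrg3TKO, Ahr ranked 27 by the size of its log2 fold change and 59 by its mean log2 CPM. In a bulk library, a change in the share of cells that express a gene and a change in RNA per cell cannot be told apart.

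The labels name no sex, but Y-linked transcripts summed to 340.5 CPM in Ndrg3ctrl replicate 2 and to 379.4 and 416.3 CPM in Ndrg3TKO replicates 2 and 3, and to at most 0.0752 CPM in the other libraries. Ahr was at 18.9 CPM in the Ndrg3ctrl library with Y-linked counts against 40.3 and 47.5 CPM in the Ndrg3TKO libraries with them. In the libraries without them it was at 17.9, 16.8 and 14.8 against 42.3 and 40.0 CPM, with a log2 fold change of 1.32 (SE 0.0958). The Y-linked libraries include a single Ndrg3ctrl library, so that comparison has no spread on the control side.

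Arnt (ENSMUSG00000015522, GRCm38 chr3:95434388-95497240, plus strand) is the nuclear partner that the receptor shares with the hypoxia-inducible factors. Its level was 115.4, 108.2, 111.3 and 112.7 CPM in Ndrg3ctrl and 121.5, 119.1, 120.5 and 122.0 CPM in Ndrg3TKO. The Ndrg3TKO libraries all lay above the Ndrg3ctrl libraries, although the gap was small beside that of Ahr, with means of 111.9 ± 3.02 and 120.8 ± 1.26 CPM (SD, n = 4 per group) and a log2 fold change of 0.11 (SE 0.0446) that was not called. Of the 5 tested members, 2 (Ahr and Arnt) had groups that did not overlap and 1 (Ahr) was called. Non-overlapping groups were found for 7.04% of all tested genes, and since the members were chosen with this comparison known, nothing is read from these counts.

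**Figure D1:**
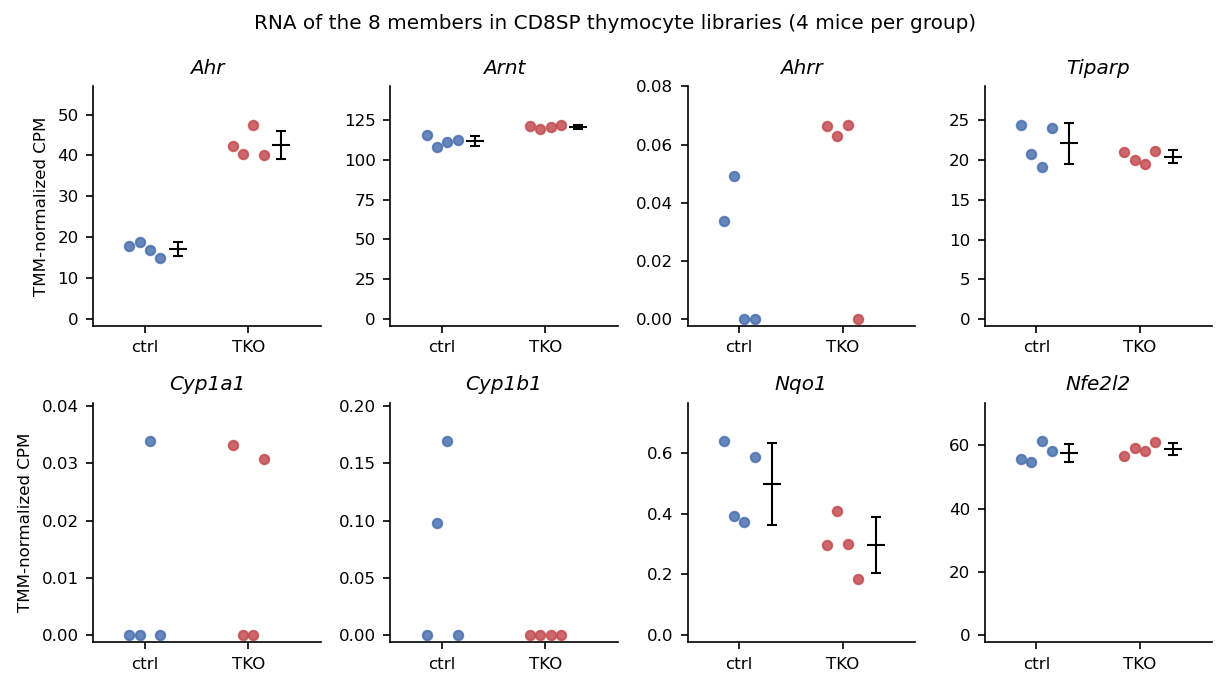
TMM-normalized CPM (y axes, starting at 0, a different scale for each gene) of the 8 members in the 4 Ndrg3ctrl (ctrl, blue) and 4 Ndrg3TKO (TKO, red) libraries. Each point is 1 mouse, and the black bars beside the points are the mean ± SD, drawn for the 5 tested members only. Ahr separates the groups widely, at 14.8 to 18.9 against 40.0 to 47.5 CPM, whereas the points of Tiparp, Nqo1 and Nfe2l2 overlap and those of Ahrr, Cyp1a1 and Cyp1b1 stand for 0 to 5 reads each.

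Because partners must meet to act, the levels were also set against each other per kilobase of exon within each library. Ahr per kilobase over Arnt per kilobase was 0.202, 0.227, 0.196 and 0.171 in Ndrg3ctrl and 0.453, 0.440, 0.512 and 0.426 in Ndrg3TKO. Arnt RNA was thus the more abundant of the pair in every library, and the ratio of levels went from 0.199 ± 0.0232 to 0.458 ± 0.0378 (SD, n = 4 per group). Ahr was chosen for its higher count in Ndrg3TKO and Arnt differed little, so the separation of this ratio follows from that choice. Hif1a, the hypoxia-inducible factor that also pairs with Arnt, was above Arnt throughout, at 2.16 ± 0.228 times its level per kilobase in Ndrg3ctrl and 1.95 ± 0.0882 times in Ndrg3TKO, and the groups overlapped.

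**Figure D2:**
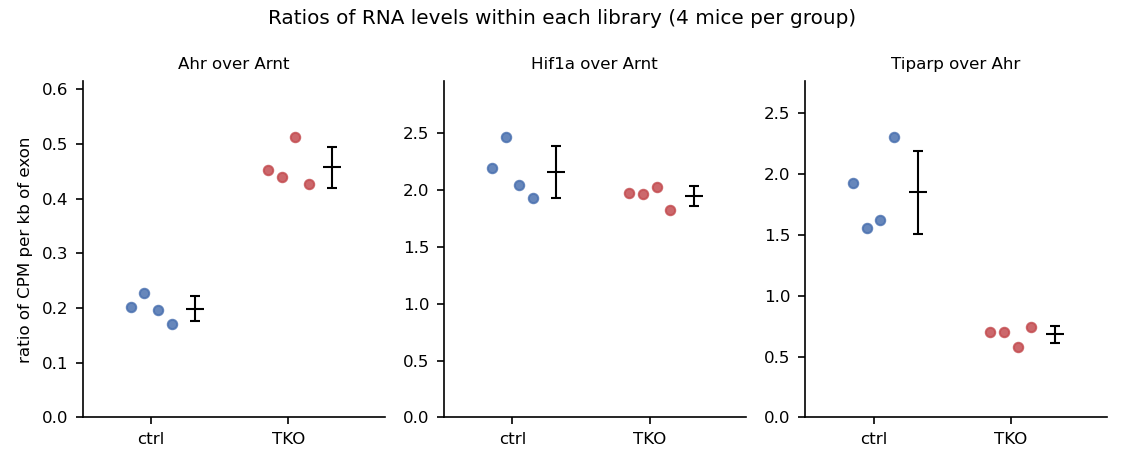
Ratio of CPM per kilobase of exon between pairs of genes (y axes, starting at 0) in each of the 4 Ndrg3ctrl (ctrl, blue) and 4 Ndrg3TKO (TKO, red) libraries, with the mean ± SD as black bars. The Ahr to Arnt ratio is higher in all Ndrg3TKO libraries (0.426 to 0.512 against 0.171 to 0.227), the Hif1a to Arnt ratio overlaps, and the Tiparp to Ahr ratio is lower in all Ndrg3TKO libraries (0.582 to 0.746 against 1.55 to 2.30). Ahr was chosen by this comparison, so the separation of the ratios that hold it follows from that choice.

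Per kilobase of exon, the order of the levels in Ndrg3ctrl was Nfe2l2 (15.2 ± 0.767 CPM per kb), Arnt (14.0 ± 0.377), Tiparp (5.08 ± 0.588), Ahr (2.77 ± 0.286) and Nqo1 (0.320 ± 0.0862). In Ndrg3TKO, Ahr (6.90 ± 0.561 CPM per kb) stood above Tiparp (4.69 ± 0.177), and the mean ± SD ranges of Nfe2l2 (15.5 ± 0.508) and Arnt (15.1 ± 0.157) overlapped. Ahr was a gene of lower-middle abundance in control cells, with 32.1% of the 14568 tested genes of known exon length below it, and 53.2% were below it in Ndrg3TKO. Nqo1 was near the lower end of the tested genes in both groups, with 7.75% and 4.32% below it.

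Tiparp (ENSMUSG00000034640, GRCm38 chr3:65528410-65555518, plus strand) encodes a mono-ADP-ribosyltransferase that is induced by the receptor and in turn modifies and restrains it. Its level was 24.4, 20.8, 19.2 and 24.1 CPM in Ndrg3ctrl and 21.0, 20.1, 19.5 and 21.1 CPM in Ndrg3TKO. The ranges overlapped, and the Ndrg3TKO libraries lay within the spread of the Ndrg3ctrl libraries. Its means were 22.1 ± 2.56 and 20.4 ± 0.772 CPM (SD, n = 4 per group), with a log2 fold change of −0.12 (SE 0.0851). The ratio of its level per kilobase to that of Ahr accordingly went from 1.85 ± 0.342 to 0.684 ± 0.0709.

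Ahrr (ENSMUSG00000021575, GRCm38 chr13:74211118-74292331, minus strand) encodes the repressor that competes with the receptor for Arnt. It had raw counts of 1, 1, 0 and 0 in Ndrg3ctrl and 2, 2, 2 and 0 in Ndrg3TKO. The sums of 2 and 6 reads corresponded to 0.0187 CPM (95% Poisson interval 0.00226 to 0.0674) and 0.0482 CPM (0.0177 to 0.105), and the intervals overlapped. Such overlap is not a test, and with so few reads a difference in Ahrr was not tested.

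Cyp1a1 (ENSMUSG00000032315, GRCm38 chr9:57687928-57703824, plus strand), the cytochrome P450 gene most often used to report receptor activity, had raw counts of 0, 0, 1 and 0 in Ndrg3ctrl and 1, 0, 0 and 1 in Ndrg3TKO. These sums, 1 read of 107119965 and 2 reads of 124412520, were under the floor of 3 counts over each group, 0.0280 and 0.0241 CPM. Cyp1b1 (ENSMUSG00000024087, GRCm38 chr17:79701537-79715061, minus strand), a related P450 gene, had raw counts of 0, 2, 5 and 0 in Ndrg3ctrl and 0 in all 4 Ndrg3TKO libraries. Its 7 reads came from Ndrg3ctrl replicates 2 and 3 only, and gave 0.0653 CPM (95% Poisson interval 0.0263 to 0.135) against 0 CPM in Ndrg3TKO (0 to 0.0297). The intervals overlapped narrowly, which is not a test, and a difference in Cyp1b1 was not tested. Both P450 genes were therefore at or near 0 in CD8SP thymocytes of either genotype, and neither was detectably higher where Ahr was higher.

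Nqo1 (ENSMUSG00000003849, GRCm38 chr8:107388225-107403206, minus strand) encodes a quinone reductase that answers to the receptor and to Nrf2. It had raw counts of 19, 8, 11 and 16 in Ndrg3ctrl and 9, 13, 9 and 6 in Ndrg3TKO. In CPM these were 0.637, 0.393, 0.372 and 0.585 against 0.298, 0.408, 0.301 and 0.184. The groups overlapped at this low depth, with means of 0.497 ± 0.134 and 0.298 ± 0.0915 CPM (SD, n = 4 per group) and a log2 fold change of −0.75 whose SE was 0.350. The sign of this difference was opposite to that of Ahr.

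Nfe2l2 (ENSMUSG00000015839, GRCm38 chr2:75675513-75704641, minus strand), itself described as a target of the receptor and the main activator of Nqo1, was well expressed. Its level was 55.8, 54.7, 61.3 and 58.3 CPM in Ndrg3ctrl and 56.6, 59.2, 58.1 and 61.2 CPM in Ndrg3TKO. The libraries of the groups were intermixed, and the log2 fold change of 0.03 was smaller than its SE of 0.0537. None of the 6 members beside Ahr and Arnt was above all Ndrg3ctrl libraries in every Ndrg3TKO library.

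**Figure D3:**
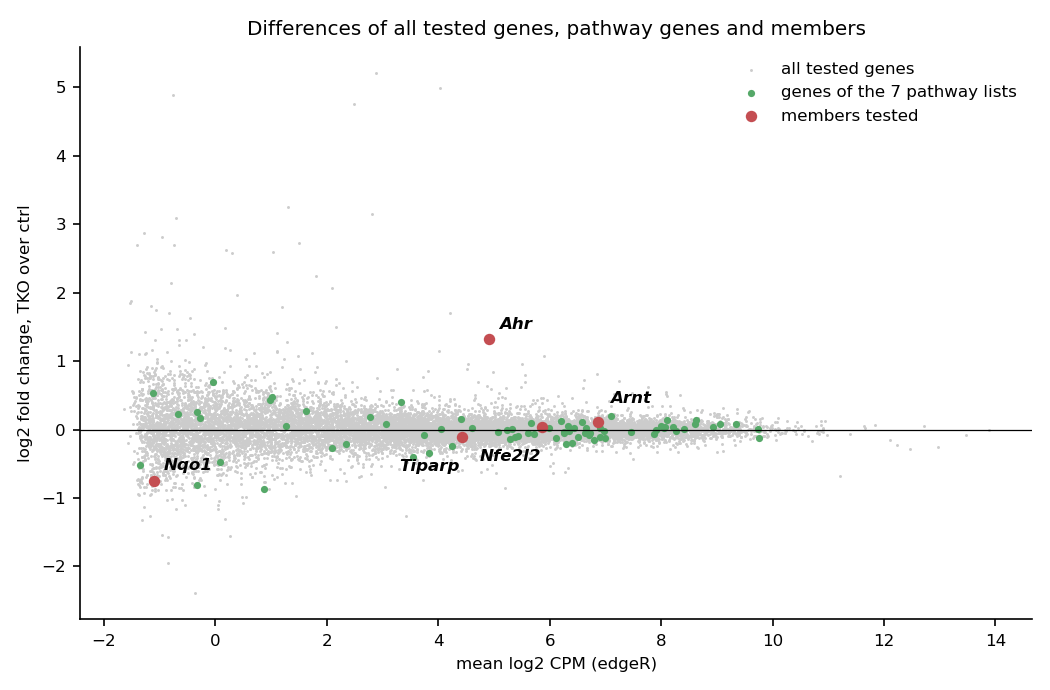
Log2 fold change of Ndrg3TKO over Ndrg3ctrl (y axis) against the mean log2 CPM over the 8 libraries (x axis) for the 14633 tested genes (grey), the 73 tested genes of the 7 pathway lists (green) and the 5 tested members (red, named). Ahr stands at 1.32, away from the cloud at its abundance, while Arnt, Tiparp and Nfe2l2 lie between −0.12 and 0.11 and Nqo1 at −0.75 among other genes of low count.

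The annotated neighbourhoods of the members were examined for overlapping transcripts, since the strand setting of the counting was not given in the sources used here and reads of overlapping genes could be shared. Within Arnt lies the processed pseudogene Gm42672 on the same strand, which had 60, 44, 92 and 68 counts in Ndrg3ctrl and 93, 91, 88 and 94 in Ndrg3TKO, few beside the 2202 to 3973 counts of Arnt. Tiparp overlaps 4931440P22Rik on the opposite strand, which had 8 to 13 counts per library. Nfe2l2 overlaps Gm24996, a small nuclear RNA gene on the same strand, whose counts were not examined here. Ahr overlaps a noncoding gene, Gm48236, on the opposite strand that had no row of its own in the count table. Counts of Ahr and of such a transcript therefore cannot be told apart if strand was ignored.

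Of the 6 tested genes nearest to Ahr on chromosome 12, 0 were called by edgeR or by DESeq2, and 3 had an unadjusted p under 0.05 in the edgeR fit, against 10.9% of all tested genes. Snx13, a sorting nexin gene 350.5 kb away, had a log2 fold change of 0.18 (adjusted p = 0.319, edgeR), and Tspan13, a tetraspanin gene 479.5 kb away on the other side, had one of 0.11 (adjusted p = 0.527, edgeR). Hdac9, Twistnb, Bzw2 and Ankmy2, the next genes out, had log2 fold changes of 0.60, −0.08, 0.15 and 0.01, so all 6 lay below the 1.32 of Ahr. On chromosome 13, the nearly silent Ahrr lies 175.4 kb from Tppp, which encodes a tubulin polymerization protein and went from 0.358 ± 0.159 to 13.9 ± 1.17 CPM (SD, n = 4 per group), or 5.21 on the log2 scale (adjusted p = 1.92e-09, edgeR). Exoc3, 2.39 kb from Ahrr, had a log2 fold change of 0.07.

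The letters GCGTG form the core to which the receptor and Arnt bind, and the same letters also occur in the core used by Hif1a with Arnt. They are shown here for the members because the comparison turns on whether genes that carry a potential receptor element follow the receptor. RefSeq windows of 300 bases, from 250 bases before to 50 bases after a gene's start (GRCm38.p6), were searched on both strands. The core was present in the windows of 5 of the 7 members that had one, and in 32.4% of all 32851 windows. Each stretch below reads 5′ to 3′ along its gene, with the core in capitals, written as CACGC where it lies on the opposite strand.
Arnt, chr3:95434349-95434377 (plus strand), core beginning 29 bases before the start: ccatagtttgggGCGTGtcttctgcccag
Ahrr, chr13:74292422-74292450 (minus strand), 107 bases before the start: tattgaaagggcGCGTGgcaggcagggac
Ahrr, chr13:74292397-74292425 (minus strand), 82 bases before the start: ggacaaggatgtGCGTGcgccctctgccg
Ahrr, chr13:74292342-74292370 (minus strand), 27 bases before the start: gcggggcggctcGCGTGctggggtggggc
Tiparp, chr3:65528265-65528293 (plus strand), 170 bases before the start: ctccgtccggagCACGCgcacgggaggcg
Cyp1a1, chr9:57697547-57697575 (plus strand), 54 bases before the start: tcagataaggagGCGTGgccaacagacac
Cyp1b1, chr17:79715121-79715149 (minus strand), 76 bases before the start: cgtcccgcccctCACGCcccaccccctaa

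The longer form TNGCGTG, with T and any base before the core, was found in 5.07% of all windows and among the members only in that of Ahrr, at the match nearest the start. The letters were not in the windows of Nqo1 and Nfe2l2. A match describes a sequence and not a bound site, and elements farther from the start were not searched. Set beside the RNA, the 4 genes other than Arnt with a core in the window were Tiparp, at 19.5 to 21.1 CPM in Ndrg3TKO against 19.2 to 24.4 CPM in Ndrg3ctrl, and the 3 genes with 0 to 5 reads per library.

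The wider pathway was then followed in 7 lists of 104 genes other than the members, of which 73 were tested. By edgeR's quasi-likelihood test 0 of these 73 genes were called in either direction, against 1.15% of all tested genes. At an unadjusted p under 0.05 there were 14 (8 higher, 6 lower), or 19.2%, against 10.9% of all tested genes, and DESeq2 called 1 gene, Nrip1. With replicate number as a block in the edgeR fit, 8 of the 73 were called, beside 800 of all 14633 tested genes. The numbers were not taken as a pairing, for the reason given with the alternatives at the end. The calls given list by list below are those without the block. The median log2 fold change over the 73 genes was 0.0008, with 37 above and 36 below 0, beside a median of −0.0033 over all tested genes. The groups did not overlap for 7 of the 73 genes, where 7.04% of all tested genes had such groups. Genes that are named below for an unadjusted p under 0.05 were singled out after their values were seen. A lack of overlap given for them is therefore no separate result.

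The chaperone complex that holds the receptor was mostly expressed at high levels. All 5 genes of its list were tested, 0 were called and 0 had an unadjusted p under 0.05, and the median log2 fold change was −0.11. Hsp90ab1, the constitutive Hsp90 chaperone, averaged 901 ± 99.6 CPM in Ndrg3ctrl and 830.5 ± 61.2 CPM in Ndrg3TKO. Ptges3, the p23 cochaperone, averaged 124.6 ± 9.63 and 115.3 ± 8.29 CPM. Src, a kinase described in the complex, was low, at 0.653 ± 0.129 and 0.783 ± 0.188 CPM. The groups overlapped for each of the 5.

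Of the bHLH-PAS family, which holds the other factors built like the receptor, 13 of 19 genes were tested and 0 were called, with a median log2 fold change of 0.05. Ncoa3, a coactivator, averaged 250.7 ± 7.85 CPM in Ndrg3ctrl and 260.4 ± 15.9 CPM in Ndrg3TKO, and Hif1a averaged 177.5 ± 16.4 and 173.1 ± 7.01 CPM, and the groups overlapped for both. Of the hypoxia and clock genes, 3 had an unadjusted p under 0.05. Epas1, which encodes Hif-2 alpha, was at 2.30 ± 0.347 and 1.26 ± 0.557 CPM (log2 fold change −0.86, adjusted p = 0.201, edgeR) with every Ndrg3TKO library below every Ndrg3ctrl library, and Hif3a at 15.9 ± 0.767 and 12.5 ± 2.53 CPM (−0.35, adjusted p = 0.261). Per2, a repressor of the circadian clock, was at 8.62 ± 1.19 and 11.4 ± 1.06 CPM (0.40, adjusted p = 0.145, edgeR), with every Ndrg3TKO library above every Ndrg3ctrl library.

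The coregulators that work with the receptor were all tested, 14 of 14, with 0 called and a median log2 fold change of 0.03. Nrip1, a corepressor that the receptor also induces in some cells, came nearest to the threshold of all list genes. It averaged 127.3 ± 5.67 CPM in Ndrg3ctrl and 146.3 ± 5.50 CPM in Ndrg3TKO without overlap, a log2 fold change of 0.20 (SE 0.0507, adjusted p = 0.0873, edgeR). Smarca4, the Brg1 remodeling ATPase, and Ep300, a histone acetyltransferase, had log2 fold changes of 0.14 (adjusted p = 0.283) and 0.14 (adjusted p = 0.404), and the groups did not overlap for Smarca4. Ncor1, the nuclear receptor corepressor, averaged 628.4 ± 24.0 and 662.4 ± 19.5 CPM, and Ddb1, part of a ubiquitin ligase the receptor can join, averaged 309.8 ± 27.9 and 306.3 ± 19.1 CPM, and the groups overlapped for both.

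The xenobiotic gene battery, the detoxifying enzymes that dioxin-like ligands induce in liver, was largely silent. Of its 9 genes, 5 (Cyp1a2, Aldh3a1, Ugt1a6a, Gsta1 and Gsta2) were at 0 in all 8 libraries and Ugt1a6b had at most 1 count. The 3 tested genes had 0 calls and 0 with an unadjusted p under 0.05. Xdh, xanthine dehydrogenase, averaged 24.2 ± 1.68 and 24.5 ± 0.858 CPM, Gstm1, a glutathione transferase, 2.32 ± 0.258 and 2.39 ± 0.550 CPM, and Cyp2s1, a further P450 gene, 4.58 ± 0.807 and 3.79 ± 0.690 CPM in Ndrg3ctrl and Ndrg3TKO. The groups overlapped for each of the 3.

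Among the 15 genes linked to the receptor in lymphocytes, 7 were tested, 0 were called and the median log2 fold change was 0.01. Il22, Il17a and Il10, cytokine genes that the receptor promotes in effector cells, were at 0 in all 8 libraries. Itgae, the CD103 integrin chain, averaged 854.8 ± 40.7 CPM in Ndrg3ctrl and 862.7 ± 34.7 CPM in Ndrg3TKO, and Ikzf3, which encodes Aiolos, averaged 482.2 ± 14.6 and 496.9 ± 18.9 CPM. Both were abundant and the groups overlapped. Prdm1, which encodes Blimp-1, was at 0.938 ± 0.220 and 0.535 ± 0.133 CPM, which is −0.80 on the log2 scale (adjusted p = 0.276, edgeR). Socs2, a cytokine signalling suppressor below the filter on low counts, had 1, 1, 4 and 1 reads in Ndrg3ctrl and 5, 5, 5 and 8 in Ndrg3TKO. It was the single gene of this list whose groups did not overlap, and at these counts it was not tested.

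The Nrf2 pathway, the genes that answer oxidative stress, was mostly expressed. Of its 27 genes, 23 were tested and 0 called, with 9 above and 14 below 0, a median log2 fold change of −0.03 and 6 genes at an unadjusted p under 0.05. Those above 0 were Maff (0.47, adjusted p = 0.418), Blvrb (0.43, adjusted p = 0.408), Osgin1 (0.69, adjusted p = 0.456) and Abcc1 (0.13, adjusted p = 0.372), a small Maf factor, a biliverdin reductase, an oxidative stress-induced growth inhibitor and a glutathione-conjugate pump. Those below 0 were Gclm, the modifier subunit of glutathione synthesis (−0.24, adjusted p = 0.227, edgeR), and Txnrd1, thioredoxin reductase (−0.19, adjusted p = 0.270, edgeR). Of the 6, the groups did not overlap for Blvrb and Abcc1. Ftl1, the ferritin light chain, averaged 241.7 ± 11.6 and 239.5 ± 12.9 CPM, and Taldo1, transaldolase of the pentose phosphate pathway, 118.8 ± 9.29 and 120.9 ± 7.15 CPM. These genes, the most abundant of the list per kilobase of exon, differed by less than their SD.

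The last list held the enzymes and transporters that take up tryptophan and turn it into ligands. Of its 15 genes, 8 were tested and 0 called, with a median log2 fold change of −0.05. Ido1, Tph1 and Aadat were at 0 in all 8 libraries. Slc3a2 and Slc7a5, the chains of the transporter LAT1, averaged 81.5 ± 4.47 and 84.0 ± 11.3 CPM in Ndrg3ctrl and 80.1 ± 5.75 and 72.5 ± 7.81 CPM in Ndrg3TKO. Haao, an enzyme late in the kynurenine pathway, was at 13.2 ± 2.21 and 9.99 ± 1.29 CPM with no overlap (log2 fold change −0.40, adjusted p = 0.201, edgeR).

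**Figure D4:**
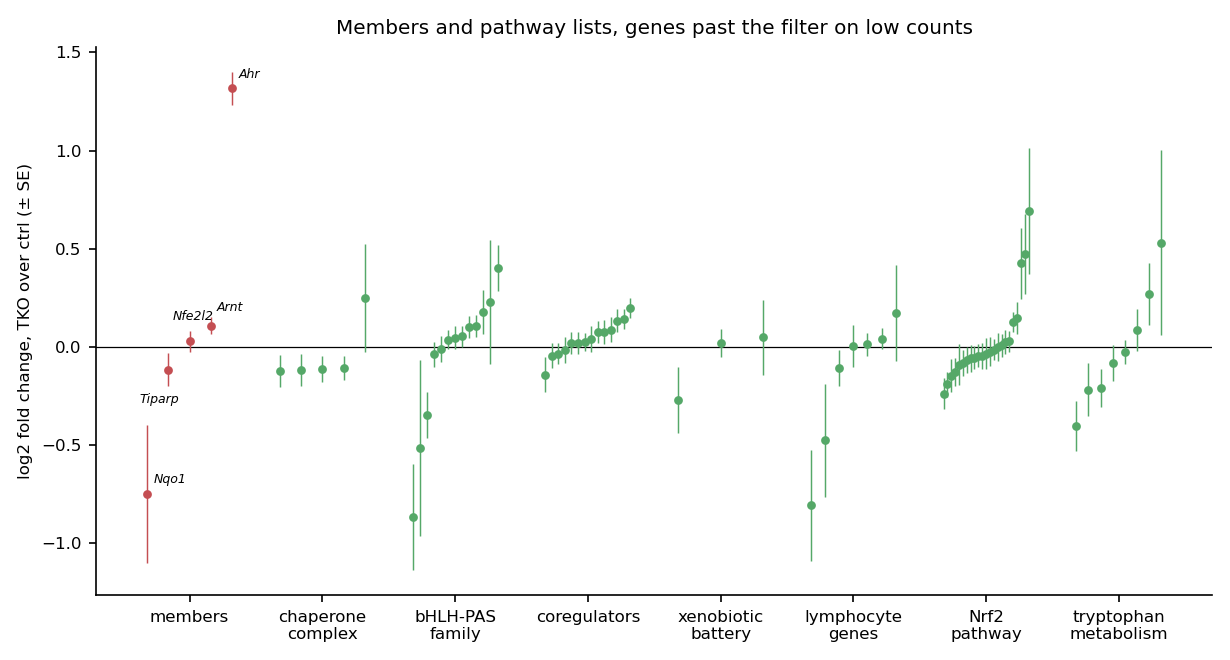
Log2 fold change of Ndrg3TKO over Ndrg3ctrl (y axis, points, with SE as bars) for the 5 tested members (red, named) and the 73 tested genes of the 7 pathway lists (green), sorted within each list along the x axis. Ahr is at 1.32, while the list genes run from −0.86 to 0.69 around 0 and the wide bars belong to genes of few counts.

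The genes whose level varied between mice most like Ahr were sought by the Pearson correlation of log2 CPM over the 8 libraries after the group means had been removed. The highest values were those of Pglyrp2 (0.983), Tnfrsf1b (0.980), Exoc3 (0.966), Erg28 (0.964) and Acadsb (0.963), and the log2 fold changes of these 5 genes between the groups were 0.09, −0.06, 0.07, −0.09 and 0.08. Of these, 0 were called by edgeR or DESeq2, 0 had an unadjusted p under 0.05, and all 5 values lay close to 0 beside the 1.32 of Ahr. The same correlation with Ahr was −0.268 for Arnt, −0.356 for Tiparp, −0.125 for Nqo1 and −0.574 for Nfe2l2. These values rest on 8 libraries that share their scaling and are a description only.

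Markers of CD8SP cells, of other cells of the thymus and of cell types known for Ahr were summed per library. The sort for CD8SP TCRb+ cells should remove most of the other types, B cells, NK cells, CD4 and double-positive cells, myeloid cells, epithelium and erythroid cells among them. The 14 markers of mature CD8 thymocytes, led by B2m, summed to 9761 ± 637 CPM in Ndrg3ctrl and 9638 ± 400 CPM in Ndrg3TKO, and 0 of 14 were called by edgeR or by DESeq2, with 4, such as Klf2 and Ccr7, lower at an unadjusted p under 0.05, where 10.9% of all tested genes passed that limit in either direction. Markers of gamma delta and type 17 cells summed to 12.8 ± 1.75 and 12.3 ± 1.64 CPM, of which Trdc, the delta chain constant gene, made up 12.1 and 11.9 CPM, while Il17a was at 0 in every library. Without Trdc the sums were 0.690 and 0.362 CPM, and Zbtb16, a factor of innate-like T cells below the filter, had 10, 6, 6 and 4 reads in Ndrg3ctrl and 2, 1, 1 and 3 in Ndrg3TKO, without overlap. Regulatory T cell markers summed to 551.7 ± 40.3 and 643.1 ± 70.7 CPM with overlap, and 0 of the 4 were called by either tool although 3 had an unadjusted p under 0.05, again against 10.9% of all tested genes. Their most abundant gene, Ikzf2, gave 536.8 and 624.7 CPM, and Foxp3 was at 3.45 ± 0.731 and 4.97 ± 1.21 CPM (log2 fold change 0.53, adjusted p = 0.293, edgeR). Il2ra, the interleukin-2 receptor alpha chain, was at 4.56 ± 1.60 and 6.97 ± 1.88 CPM (log2 fold change 0.62, adjusted p = 0.422, edgeR). The remaining marker, Ctla4, went the other way, at 6.88 ± 1.84 and 6.46 ± 0.983 CPM with overlap (log2 fold change −0.09, adjusted p = 0.891, edgeR).

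The marker sums of 2 other cell types separated the groups. The 6 markers of NK and innate lymphoid cells summed to 0.939, 1.77, 1.05 and 1.06 CPM in Ndrg3ctrl and 2.52, 2.23, 2.94 and 3.16 CPM in Ndrg3TKO. The higher sum lay in Klrb1c, the NK1.1 receptor gene, which went from 0.305 ± 0.232 to 1.77 ± 0.299 CPM (log2 fold change 2.62, adjusted p = 0.00149, edgeR), and without it the sums were 0.899 and 0.938 CPM, with Ncr1 and Gata2 at 0 in every library. The 5 markers of B cells summed to 11.6, 12.7, 11.1 and 13.2 CPM in Ndrg3ctrl and 8.62, 9.42, 8.45 and 9.43 CPM in Ndrg3TKO. Almost all of it was Cd79b (11.8 and 8.73 CPM, log2 fold change −0.43, adjusted p = 0.0529, edgeR, and called by DESeq2), with Ms4a1 at 0. The part of these markers in the Ahr difference was not tested.

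Of the 6 markers of innate or virtual memory CD8 cells, 3 were called lower in Ndrg3TKO, against 0.355% of all tested genes. The other markers, Il2rb, Cd44 and Tbx21, had log2 fold changes of −0.069, −0.065 and −0.065 (adjusted p = 0.774, 0.832 and 0.955, edgeR). The groups overlapped for each of these. Eomes, a T-box factor, was at 15.2 ± 2.40 and 6.36 ± 0.996 CPM (log2 fold change −1.26, adjusted p = 0.00017, edgeR), and Cxcr3 and Ccl5, a chemokine receptor and a chemokine of memory cells, had log2 fold changes of −1.55 and −2.39 (adjusted p = 0.00356 and 0.000603). The sum over the list, 406.7, 439.0, 388.5 and 362.2 CPM in Ndrg3ctrl and 351.4, 386.4, 400.9 and 342.5 CPM in Ndrg3TKO, overlapped because it was mostly Il2rb. The sums for CD4 lineage cells (led by Cd4, 0.883 and 0.668 CPM), immature double-positive cells (Cd1d1, 51.5 and 53.3 CPM), dendritic cells and macrophages (Cst3, 38.0 and 34.6 CPM), thymic epithelium (Epcam, 2.32 and 1.84 CPM) and erythroid cells (Alas2, 0.0798 and 0.130 CPM, with both globin genes of the list at 0) also overlapped. Dntt, the terminal transferase of immature thymocytes, was at 15.6 ± 2.12 and 21.3 ± 2.89 CPM without overlap (log2 fold change 0.45, adjusted p = 0.0783, edgeR, and called by DESeq2). Of the 4 tested dendritic cell and macrophage markers, 2 were lower at an unadjusted p under 0.05 and 0 were called by edgeR or DESeq2. These were H2-Aa, an MHC class II chain, at 0.743 ± 0.0386 and 0.486 ± 0.128 CPM without overlap (log2 fold change −0.61, adjusted p = 0.445, edgeR), and Cd74, the class II invariant chain, at 16.1 ± 3.12 and 12.9 ± 1.22 CPM (−0.31, adjusted p = 0.377, edgeR). Mitochondrial transcripts made up 0.820%, 0.817%, 0.803% and 0.636% of counts in Ndrg3ctrl and 0.694%, 0.682%, 0.712% and 0.571% in Ndrg3TKO. The part of these values in the Ahr difference was not tested either.

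**Figure D5:**
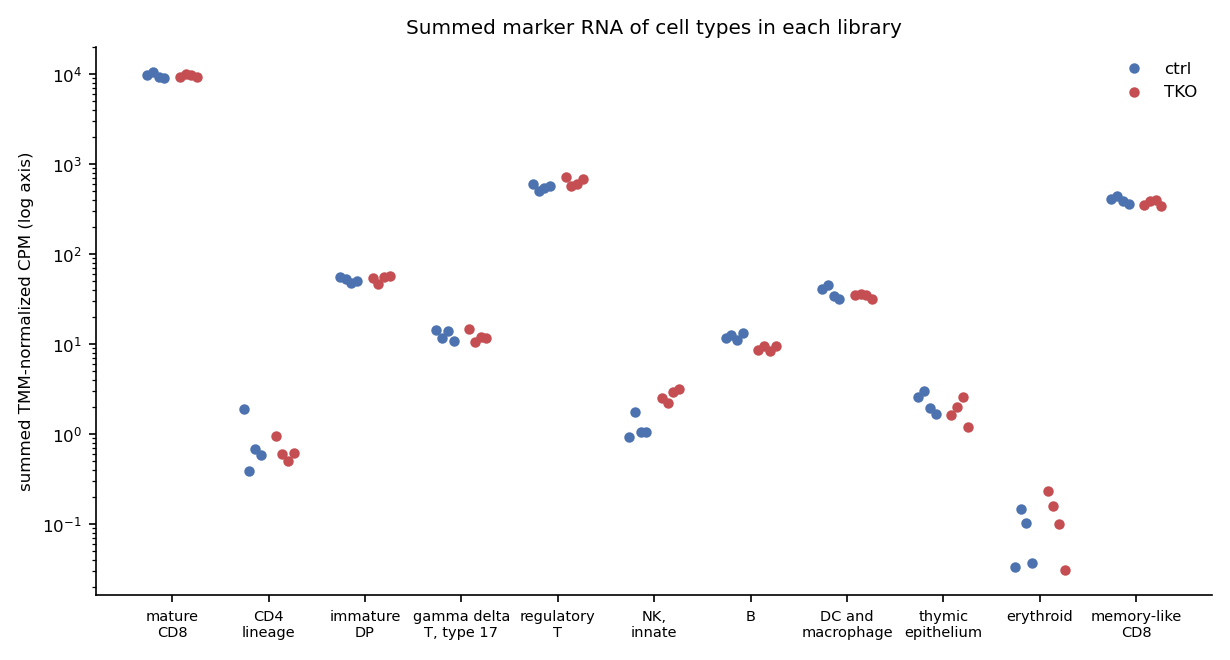
Summed TMM-normalized CPM of the markers of each cell type (y axis, log scale) in the 4 Ndrg3ctrl (ctrl, blue) and 4 Ndrg3TKO (TKO, red) libraries, each point 1 mouse. The groups separate for the NK and innate lymphoid list (0.939 to 1.77 against 2.23 to 3.16 CPM) and for the B cell list (11.1 to 13.2 against 8.45 to 9.43 CPM) and overlap for the 9 others.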

How the data were processed

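Total RNA of sorted CD8SP TCRb+ thymocytes high for MHC-I was sequenced from 8 mice after removal of ribosomal RNA. Per the labels and the study's methods, the authors used cutadapt for trimming, STAR for alignment to GRCm38.p4 and featureCounts for counting per gene. They deposited raw counts, whole numbers that are not normalized, and all 8 sample columns were used. Symbols, positions and exon lengths came from GENCODE M21 (GRCm38), which matched 98.5% of 47937 genes. Promoter windows came from RefSeq (GRCm38.p6).

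Genes were filtered with filterByExpr, scaled by TMM and fitted with edgeR 4.0.16 (glmQLFit, robust, in R 4.3.3 with limma 3.58.1), Ndrg3TKO against Ndrg3ctrl with no covariate, with Benjamini-Hochberg adjustment over 14633 genes and a threshold of 0.05. Depth was 21126698 to 32668081 counts per library. DESeq2 1.42.0, other scalings and filters, a replicate block and leaving out libraries were tried as alternatives.

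The members and lists were chosen with earlier results of these data known. Genes were named by rule: the members and Ndrg3, list genes past the threshold and the 2 most abundant per list by CPM per kb, the 5 genes most like Ahr, and the most abundant marker of each cell type. List genes at 3 or fewer counts in every library were counted and, apart from those named as being at 0 or nearly so, not followed. These, genes at an unadjusted p under 0.05, neighbours, other markers, Src, Socs2 and Cyp2s1 were named after their values were seen. Some items are not reported here.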

Additional observations from a re-analysis of the deposited data

Results flagged for a closer look

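Among 78 groups of 4 libraries that were examined for a single library standing apart from the others by Dixon's criterion, 4 held one, where chance gives about 1 in 20 (3.9 of 78). Acadsb, one of the genes that varied most like Ahr between mice, was at 25.1 CPM in Ndrg3TKO replicate 3 against 21.3 to 21.8 CPM in the other Ndrg3TKO libraries. Ahr was also highest in that library (47.5 CPM), but Acadsb was picked for its likeness to Ahr, so this is no separate result. Mitochondrial transcripts were 0.636% of counts in Ndrg3ctrl replicate 4 against 0.803% to 0.820% in the other Ndrg3ctrl libraries. Y-linked transcripts summed to 340.5 CPM in Ndrg3ctrl replicate 2 and to at most 0.0752 CPM in the other Ndrg3ctrl libraries. The markers of NK and innate lymphoid cells summed to 1.77 CPM in Ndrg3ctrl replicate 2 against 0.939 to 1.06 CPM in the other Ndrg3ctrl libraries.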

How the results depend on the processing

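Over 15 alternatives, the log2 fold change of Ahr ranged from 1.25 to 1.36, a description, since Ahr was chosen by this comparison. Those of Arnt (0.09 to 0.13), Tiparp (−0.18 to −0.06), Nqo1 (−1.13 to −0.57) and Nfe2l2 (0.01 to 0.06) kept their sign, while Ndrg3 ranged from −0.67 to −0.60. The number of genes called across the table moved more than these values: from 168 (116 higher, 52 lower) to 274 (176 and 98) without a filter on low counts, to 309 (191 and 118) with DESeq2 and to 92 (73 and 19) without the 3 libraries with Y-linked counts. Leaving out 1 library in turn gave 90 to 158 genes, with 72 to 110 higher and 18 to 48 lower, and the count of 90 was that without Ndrg3TKO replicate 3. Of the 7 lists, 1 gene was called without the filter and with DESeq2 (Nrip1 in both), and 0 to 1 with a library left out (Hif3a, without Ndrg3TKO replicate 1). The group-centred profiles of same-numbered libraries correlated with r = 0.181, 0.415, −0.055 and 0.301, not all above 0.1, and Ndrg3ctrl replicate 3 correlated best with Ndrg3TKO replicate 4 (0.145), so the numbers were not taken as a pairing. With a replicate block, 800 of 14633 genes were called (435 higher, 365 lower), 164 of them shared with the 168, and 8 of the 73 tested list genes (Epas1, Haao, Hif3a, Nrip1, Per2, Slc7a5, Smarca4 and Txnrd1). The cause of these shifts was not tested. Ahrr, Cyp1a1 and Cyp1b1, at 0 to 5 reads per library, are limited by depth.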
